A study of Homo sapiens with 3 samples.

Results

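The genes of one cell line were quantified by 2 low-input RNA-seq methods, and they are described here by the function of the proteins they encode. HBE is a line of human bronchial epithelial cells, the cells that line the airway. About 10 pg of its polyA+ mRNA went into each library, and the methods were run in parallel. In LIEA (Low-Input, Equal-Amplification), RNase III cut the mRNA into fragments before adapters were ligated, and the Ion Proton read the amplified library. In Smart-seq2, an oligo-dT primer and template switching copied the mRNA as a whole before amplification, and an Illumina HiSeq read the library. The LIEA library had 18 cycles of PCR and was then amplified on separate beads by emulsion PCR. The Smart-seq2 cDNA had 18 cycles before library construction. LIEA of the lung adenocarcinoma line A549 enters only where cell lines are compared. The samples used hold 1 library per line and method, so no difference below has a replicate or a test. The counting error given beside some genes covers neither culture nor library.

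The unit was log2 rpkM (reads scaled to transcript length and to the mapped reads of the library), as deposited per gene symbol. Of 18836 genes listed in at least 1 library, 14952 were listed in both HBE libraries, and the 9229 with a log2 rpkM of 1 or more in both were compared. For each gene the Smart-seq2 value was subtracted from the LIEA value, and the median of this difference over all 9229 genes, -0.08, was then subtracted too. The result is called the relative difference, in log2 units, positive where LIEA read the gene higher. A relative difference of at least 1 in size, 2-fold, was counted. By that rule 2066 genes (22.4%) were higher in LIEA and 1785 (19.3%) were higher in Smart-seq2, and these shares are the background for every family below. The SD of the relative difference was 1.32, whereas the median counting error was 0.13, from medians of 191 reads in LIEA and 403 reads in Smart-seq2.

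Genes were sorted by symbol into 57 families of 6 classes: secreted, membrane, nuclear, metabolic, structural, and protein synthesis and turnover. Together they held 3248 (35.2%) of the genes compared, and 55 families had at least 5 of them. The identity of the line was visible in both libraries. All 11 epithelial markers were listed in both, between 2.55 and 10.10 in LIEA and between 3.84 and 12.47 in Smart-seq2. Of 10 markers of leukocytes, endothelium, fibroblasts and mesenchyme, 5 were listed in both, at most at 3.44 in LIEA (CDH5) and 3.15 in Smart-seq2, and 4, among them VIM and COL3A1, in neither.

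Epithelial cells in culture lay down a basement membrane of laminins and collagens under them, hold on to it with integrins, and join each other through cadherins and desmosomes that anchor keratin filaments. They also release chemokines and protease inhibitors. The ribosome, the proteasome and the respiratory chain are built from many subunits in fixed proportions, so that their genes are often read as a group. A group of genes that one method reads higher would look like a difference of cells if samples made by both methods were set against each other.

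The coding ends of 5 pairs of genes are shown, as these genes mark the extremes of a family or cannot be told apart well. In the first 4 pairs, the first gene had the highest and the second the lowest relative difference of its family: AGRN and LAMB3 of the basement membrane, CST3 and SERPINB5 of the secreted proteases and inhibitors, RPL37A and RPS3A of the cytosolic ribosome, and NDUFA3 and NDUFAF4 of the respiratory chain. Each is the last 60 coding bases on GRCh37, 5′ to 3′ on the coding strand and within the last exon of the GENCODE transcript, with the stop codon in capitals.
AGRN, chr1:990302-990361, plus strand: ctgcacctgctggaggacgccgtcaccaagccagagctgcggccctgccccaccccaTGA
LAMB3, chr1:209788616-209788675, minus strand: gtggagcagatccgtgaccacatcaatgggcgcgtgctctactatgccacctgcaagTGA
CST3, chr20:23614553-23614612, minus strand: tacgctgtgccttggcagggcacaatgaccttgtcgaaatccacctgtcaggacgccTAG
SERPINB5, chr18:61170896-61170955, plus strand: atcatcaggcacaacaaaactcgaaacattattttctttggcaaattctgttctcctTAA
RPL37A, chr2:217366068-217366127, plus strand: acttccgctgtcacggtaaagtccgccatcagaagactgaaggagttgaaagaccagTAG
RPS3A, chr4:152025686-152025745, plus strand: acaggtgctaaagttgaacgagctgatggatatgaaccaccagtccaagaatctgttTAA
NDUFA3, chr19:54610150-54610209, plus strand: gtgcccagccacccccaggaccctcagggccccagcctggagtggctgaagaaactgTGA
NDUFAF4, chr6:97338980-97339039, minus strand: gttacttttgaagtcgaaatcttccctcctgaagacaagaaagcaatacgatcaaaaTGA
KRT6A, chr12:52881504-52881563, minus strand: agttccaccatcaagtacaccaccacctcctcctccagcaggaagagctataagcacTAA
KRT6B, chr12:52840974-52841033, minus strand: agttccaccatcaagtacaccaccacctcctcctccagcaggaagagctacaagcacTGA

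In each of the 4 family pairs the gene higher in LIEA had the larger share of G and C in this stretch. The shares were 70.0% in AGRN against 56.7% in LAMB3, and 56.7% in CST3 against 33.3% in SERPINB5. They were 50.0% in RPL37A against 41.7% in RPS3A, and 66.7% in NDUFA3 against 36.7% in NDUFAF4. Over whole transcripts RPL37A and RPS3A were close, at 43.5% and 42.5%, but over coding sequences they were at 52.5% and 42.7%. The GENCODE transcript taken for RPL37A has 2992 bases and a coding length of 276. The pairs were picked by their relative difference, so this describes these genes only. KRT6A and KRT6B shared 58 of these 60 bases and 97.5% of their 1692 coding bases before the stop codon, so reads of one may have been counted for the other.

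Medians of whole classes lay close to 0, while families inside a class lay far apart. The class medians were -0.05 for 114 secreted, 0.21 for 547 membrane, 0.12 for 1004 nuclear, -0.18 for 498 metabolic, 0.14 for 269 structural genes and -0.17 for 819 genes of protein synthesis and turnover. In the secreted class 32 genes were higher in LIEA and 38 in Smart-seq2, 28.1% and 33.3%, both above the background. Of the membrane genes 159 (29.1%) were higher in LIEA and 95 (17.4%) in Smart-seq2. Metabolic genes showed the reverse, 80 (16.1%) and 125 (25.1%). With genes grouped by hydrophobic segments in the translated transcripts in place of symbols, the median was -0.07 for 5838 genes without a segment and 0.22 for 289 genes with 6 or more segments past the N-terminus.

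**Figure D1:**
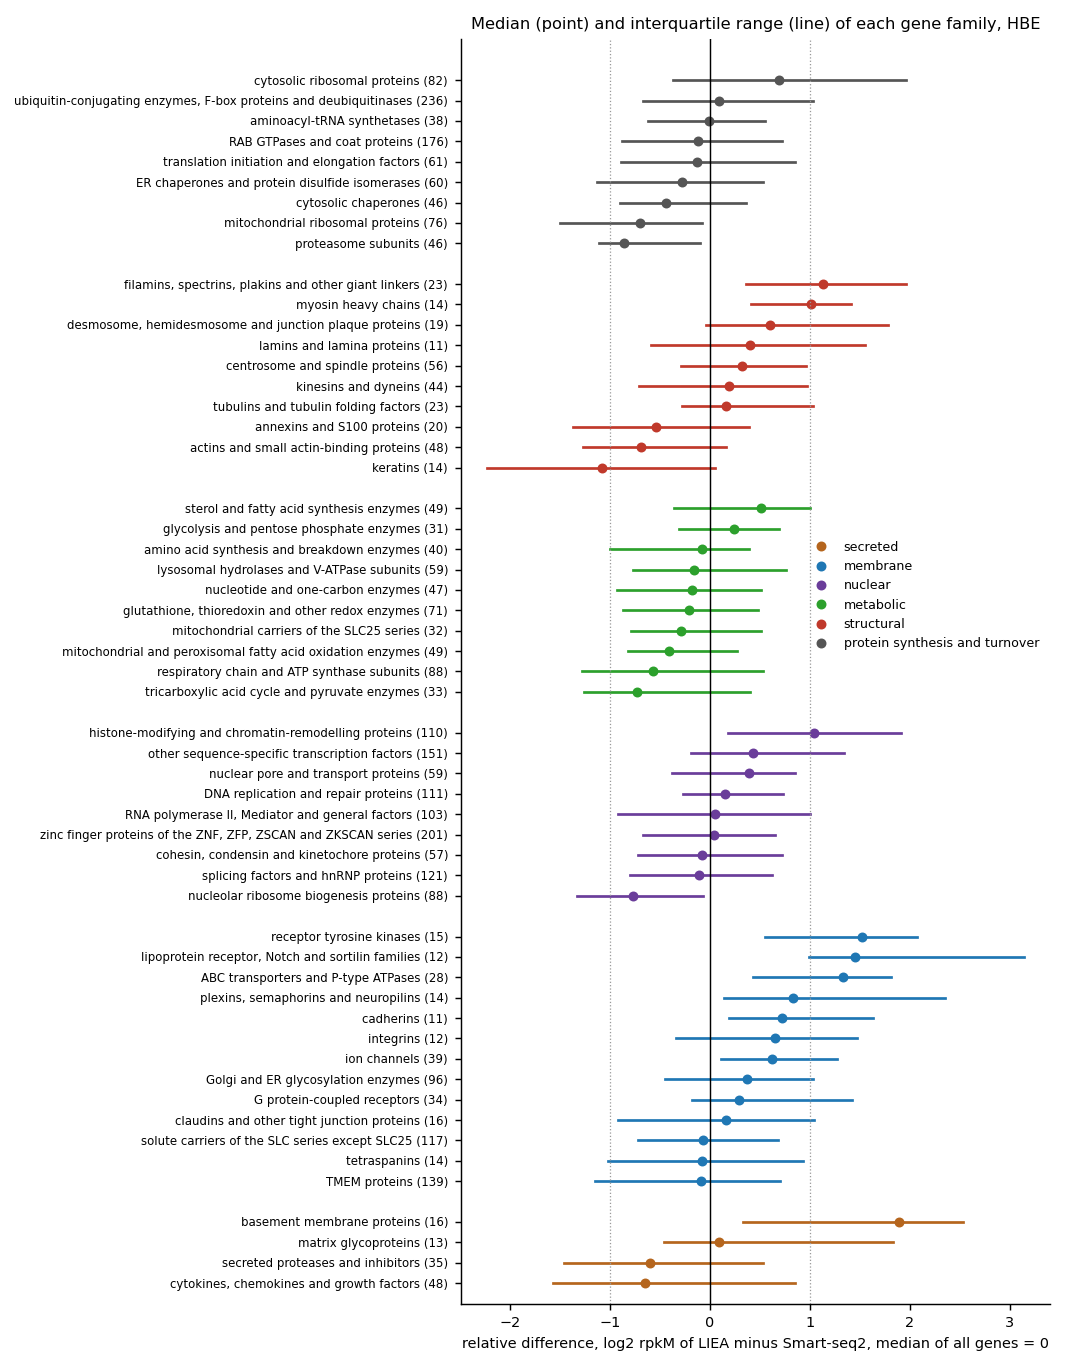
Median relative difference of each of the 55 families with at least 5 genes (points) and its interquartile range (lines), in log2 units, with the number of genes in brackets and dotted lines at 2-fold. The medians run from -1.08 for keratins to 1.89 for basement membrane proteins, and every class holds families on both sides of 0.

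Among secreted proteins, the basement membrane stood at one end. Of its 16 genes compared, 11 were higher in LIEA and 1 in Smart-seq2, with a median of 1.89. AGRN, which encodes the heparan sulfate proteoglycan agrin, was at a log2 rpkM of 6.60 (3262 reads) in LIEA and 1.08 (153 reads) in Smart-seq2, a relative difference of 5.59 with a counting error of 0.12. COL7A1, the collagen of anchoring fibrils, was at 6.62 and 3.31, a relative difference of 3.39. These 2 genes would be read as strong in one library and as ordinary or faint in the other.

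The laminins did not move together. Laminins are trimers of an alpha, a beta and a gamma chain, and LAMA3 and LAMB3 encode an alpha and a beta chain of the main form under stratified and airway epithelium. LAMA5, LAMB1, LAMB2 and LAMC1, which build other laminins, had relative differences of 2.52, 2.47, 2.03 and 2.74. LAMA3 had 0.32 and LAMB3 had -1.11. By the mean of both libraries LAMB3 was the most abundant basement membrane gene, with a log2 rpkM of 6.93 in LIEA and 8.12 in Smart-seq2. Thus LAMA5, at 7.46, stood above LAMB3 in LIEA, and at 5.02 far below it in Smart-seq2.

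Cytokines, chemokines and growth factors held both extremes of the class. Their median was -0.65, with 9 of 48 higher in LIEA and 20 in Smart-seq2. VEGFA, the vascular growth factor, was at 6.79 (1869 reads) in LIEA and 1.10 (77 reads) in Smart-seq2, a relative difference of 5.78 with a counting error of 0.17. CXCL1, a chemokine that attracts neutrophils, was at 2.13 and 7.10, a relative difference of -4.89. Only 12 reads supported the LIEA value of CXCL1, with a counting error of 0.42. CXCL8 (2.16 and 6.84) and CXCL3 (1.91 and 6.10), of the same kind, had -4.60 and -4.11, and all 4 genes of the CXCL series compared were lower in LIEA. MIF, the most abundant cytokine, differed little, at 10.59 and 10.39.

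The secreted proteases and their inhibitors had a median of -0.61, with 5 of 35 higher in LIEA and 14 in Smart-seq2. CST3, the cysteine protease inhibitor cystatin C, was highest at 4.87 in LIEA and 1.67 in Smart-seq2, a relative difference of 3.28. SERPINB5, maspin, was lowest at 4.78 and 8.14, a relative difference of -3.28. It belongs to the serpins of clade B, most of which stay inside the cell, so the name of the family fits them poorly. All 9 clade B serpins compared were below 0, from -3.28 to -0.94, and 8 of them past 2-fold. SPINT2, an inhibitor of serine proteases and the most abundant member, was at 8.41 and 9.12. Matrix glycoproteins had a median of 0.09 over 13 genes, from -1.51 for FBLN1 (fibulin 1) to 4.43 for LTBP3, which binds latent TGF-beta.

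**Figure D2:**
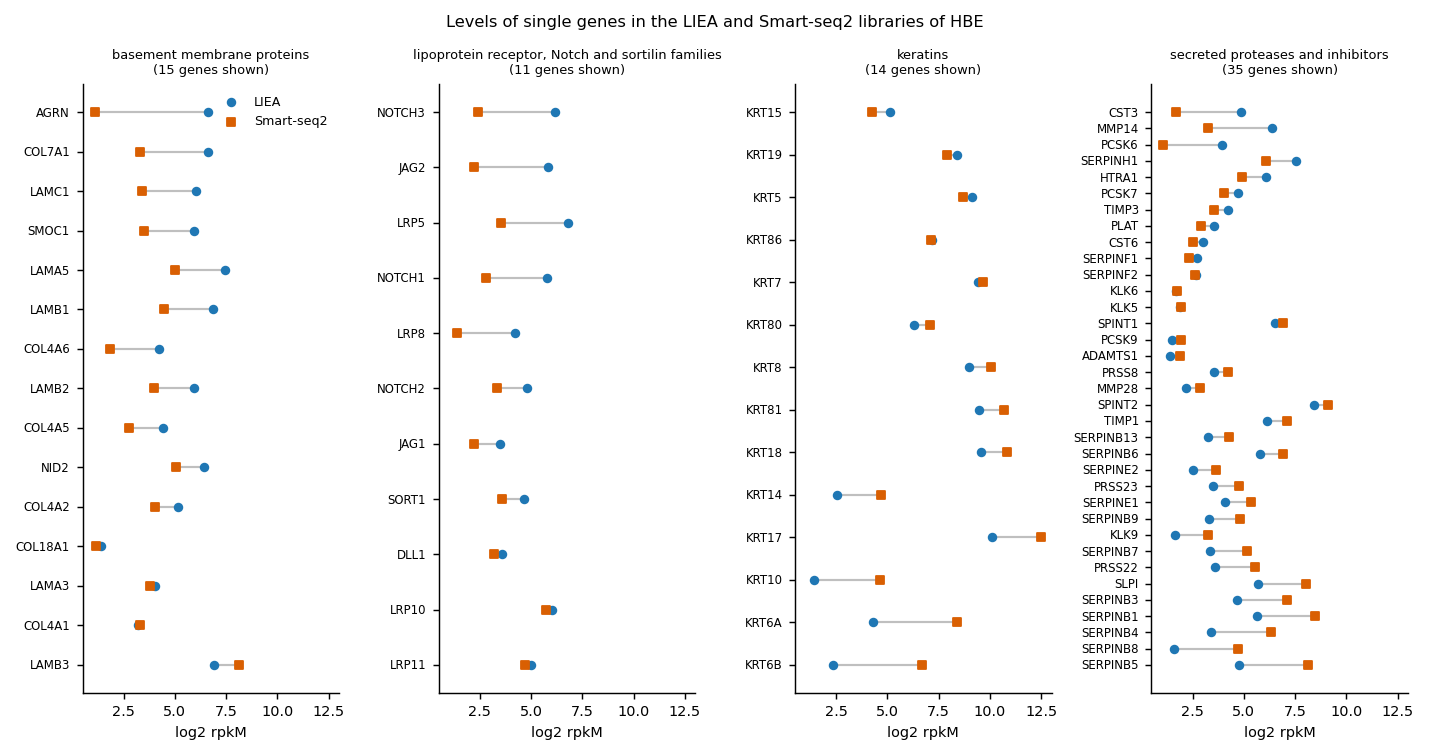
Log2 rpkM of genes of 4 families in LIEA (circles) and Smart-seq2 (squares), ordered by relative difference from high at the top. AGRN and NOTCH3 lie far to the right in LIEA, KRT6A and SERPINB5 far to the right in Smart-seq2, and the 2 values of LAMA3 nearly coincide.

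Receptor tyrosine kinases, which pass growth signals into the cell, had a median of 1.52, with 9 of 15 higher in LIEA and 0 in Smart-seq2. EPHB4, a receptor of ephrins, was at 5.83 in LIEA and 2.47 in Smart-seq2 (relative difference 3.44). DDR1, a collagen receptor and the most abundant of them, was at 7.49 and 6.06. EGFR and MET, the receptors of epidermal and hepatocyte growth factor, were close to the background at 0.41 and 0.51. The lowest was EPHB6, a receptor of ephrins without kinase activity, at 2.74 and 3.07 (-0.25).

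The lipoprotein receptor, Notch and sortilin families had a median of 1.45, with 9 of 12 higher in LIEA and 0 in Smart-seq2. NOTCH3, a receptor for cell fate signals, was at 6.15 and 2.41 (3.83), and its ligand gene JAG2 at 5.84 and 2.20 (3.72). LRP10 and LRP11, relatives of the lipoprotein receptors, differed little at 0.41 (6.03 and 5.70) and 0.39 (5.01 and 4.70). All 4 plexins compared, the receptors of semaphorins, were past 2-fold, from 1.85 to 4.03. The 8 semaphorins themselves had a median of 0.21, with 3 past 2-fold in LIEA and 1 in Smart-seq2. PLXNB1 led the plexins at 5.34 in LIEA and 1.39 in Smart-seq2.

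Among integrins, 5 of 12 were higher in LIEA and 1 in Smart-seq2, with a median of 0.65. ITGA3 and ITGB4, partners of other chains in binding laminin, were at 8.29 and 7.72 in LIEA but 5.52 and 5.45 in Smart-seq2. ITGB1, the shared beta chain of many integrins, was at 7.36 and 7.83. So LIEA placed ITGA3 and ITGB4 above ITGB1, and Smart-seq2 placed both below it. ITGB5 (6.25 and 2.15) was the highest of the family and ITGB8 (1.97 and 3.77) the lowest. Of the cadherins, 4 of 11 were higher in LIEA and 0 in Smart-seq2, with a median of 0.72. FAT2, a giant cadherin, had a relative difference of 4.51 (5.43 and 1.01), and CDH1, E-cadherin, had 0.11 (5.84 and 5.81).

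Tight junction proteins had a median of 0.16 with opposite extremes. OCLN, occludin, was at 2.10 in LIEA and 5.19 in Smart-seq2 (-3.01), and CLDN4, claudin 4, at 6.55 and 9.15 (-2.52). PARD3, a polarity protein of the junction, was at 3.79 and 1.27 (2.60). The tetraspanins, small membrane organisers, had 4 of 14 past 2-fold in each direction: CD81 was at 7.88 and 3.23 (4.74), whereas CD9 was at 6.47 and 8.21 (-1.67) and CD63, the most abundant, at 7.18 and 8.80 (-1.55). CD9, CD63 and CD81 are used together as markers of extracellular vesicles, and CD81 was the highest of them in LIEA and the lowest in Smart-seq2.

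ABC transporters and P-type ATPases, large pumps that spend ATP, had a median of 1.34, with 18 of 28 higher in LIEA and 1 in Smart-seq2. The gene higher in Smart-seq2, ATP1B3, is a small beta subunit of the sodium pump, at 5.37 in LIEA and 6.90 in Smart-seq2. ATP2A2, the calcium pump of the endoplasmic reticulum, led at 6.93 and 2.72 (4.29). Ion channels had a median of 0.62, with 13 of 39 higher in LIEA and 2 in Smart-seq2, led by PIEZO1, a mechanically gated channel (5.74 and 1.90). In contrast, the solute carriers were balanced, with a median of -0.07 and 21 of 117 genes in each direction. The 139 TMEM genes, grouped by name alone, leaned to Smart-seq2, with 25 higher in LIEA and 41 in Smart-seq2. MGAT4B, a Golgi enzyme that branches N-glycans, had the highest relative difference of the membrane class, 5.27 (6.74 and 1.56).

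In the nucleus, chromatin proteins lay on the side of LIEA. Histone-modifying and chromatin-remodelling genes had a median of 1.04, with 59 of 110 (53.6%) higher in LIEA and 6 in Smart-seq2. CHD3, a helicase of the NuRD complex, was at 5.53 in LIEA and 1.21 in Smart-seq2 (4.40). HDAC2, a histone deacetylase of the same complex, was at 3.53 and 5.43 (-1.81), the lowest of the family. CHD3 thus lay above HDAC2 in LIEA and far under it in Smart-seq2.

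Sequence-specific transcription factors outside the ZNF series had a median of 0.43, with 57 of 151 higher in LIEA and 14 in Smart-seq2. MAFK, a small Maf protein, was highest (5.57 and 1.33), and FOSL1, a subunit of AP-1, lowest (4.45 and 8.0). MYC, the most abundant, was at 7.96 and 9.60 (-1.56). The 201 genes of the ZNF, ZFP, ZSCAN and ZKSCAN series, which mostly encode C2H2 zinc finger proteins, had a median of 0.04, with 29 and 27 genes past 2-fold, fewer in each direction than the background. Far outside were ZNF598 at 5.12 and 1.5 (3.70), ZNF296 at -2.68, and ZNF302. The last was at 1.23 (34 reads) in LIEA and 7.07 (4170 reads) in Smart-seq2, a relative difference of -5.76, the lowest of all genes compared.

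Splicing factors and hnRNP proteins had a median of -0.11, with 24 of 121 (19.8%) higher in LIEA and 22 (18.2%) in Smart-seq2, shares below the background. PRPF19 (6.76 and 1.62), LSM7 (6.92 and 1.89) and U2AF2 (7.33 and 2.80), all parts of the spliceosome or its assembly, had relative differences of 5.22, 5.12 and 4.61. LSM7 rested on 19 reads in Smart-seq2. The 11 serine- and arginine-rich splicing factors compared had a median of -0.82, with 0 higher in LIEA and 4 in Smart-seq2. A reader of U2AF2 and of SRSF3 (5.68 and 7.51) would see opposite shifts in the same machine.

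The ribosome biogenesis proteins had a median of -0.77, with 5 of 88 higher in LIEA and 34 (38.6%) in Smart-seq2. NCL (8.42 and 9.93) and NPM1 (8.98 and 10.08), the abundant nucleolar proteins nucleolin and nucleophosmin, had -1.42 and -1.02. FBL, the methyltransferase fibrillarin, was an exception at 8.02 and 6.64 (1.46). DNA replication and repair genes had 0.15, the nuclear pore and transport genes 0.39, and RNA polymerase II with Mediator and general factors 0.05, and cohesin, condensin and kinetochore genes -0.08, each with genes past 2-fold in both directions. XRCC4, which acts in end joining, was at 1.03 and 3.78, and RAD9A, of the checkpoint clamp, at 4.01 and 1.07.

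**Figure D3:**
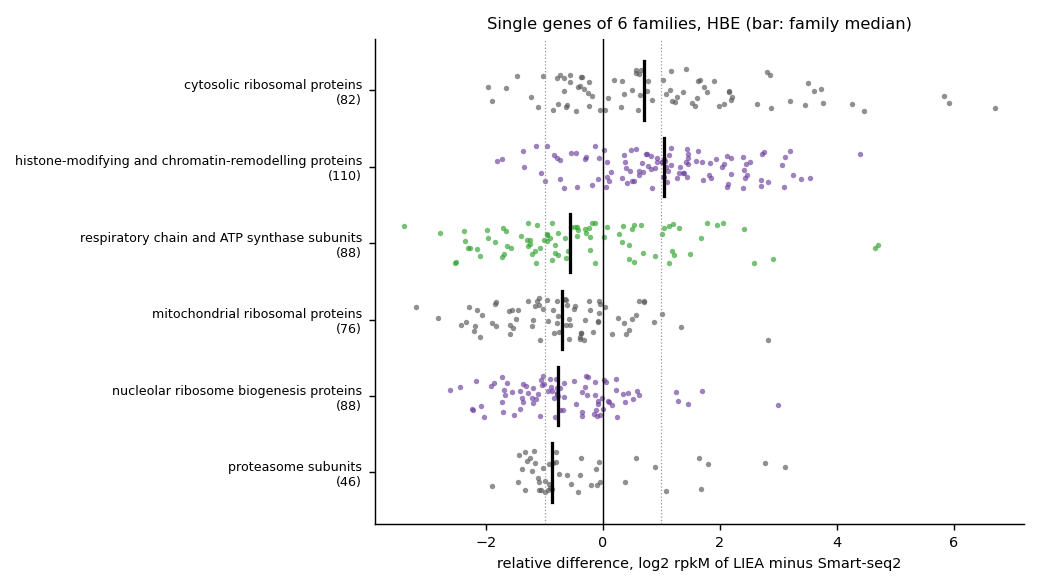
Relative difference in log2 units of every compared gene of 6 families (points) with the family median (bar) and dotted lines at 2-fold. Cytosolic ribosomal proteins spread from -1.97 to 6.70 around a median of 0.70, whereas mitochondrial ribosomal, nucleolar and proteasome genes gather left of 0.

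Metabolic families had medians below 0, except lipid synthesis and glycolysis. The tricarboxylic acid cycle and pyruvate enzymes had a median of -0.73, with 4 of 33 higher in LIEA and 14 in Smart-seq2. SDHD and SDHC, the small membrane anchors of succinate dehydrogenase, had -2.23 (5.20 and 7.51) and -1.45 (4.47 and 6.0). Its catalytic subunit gene SDHA had 0.18 (8.25 and 8.15). DLST, a subunit of the oxoglutarate dehydrogenase complex, was highest at 5.89 and 3.03. Within one enzyme, the subunits were therefore read in other proportions by each method.

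The respiratory chain and ATP synthase had a median of -0.57, with 18 of 88 higher in LIEA and 31 in Smart-seq2. NDUFA3 of complex I (7.28 and 2.66) and COX6B1 of complex IV (7.79 and 3.22) had relative differences of 4.70 and 4.66, on 22 and 27 reads in Smart-seq2. NDUFAF4, an assembly factor of complex I, was lowest at 2.02 and 5.51 (-3.40). By complex, the median was -0.36 over 38 complex I subunits and 0.82 over 10 of complex IV. It was -0.94 over 18 genes taken for the ATP synthase by their ATP5 symbols. Among them is ATP5SL (-0.77), which does not encode a subunit. The medians of complex IV and ATP synthase thus lay on opposite sides of 0, but their genes overlapped. Of complex IV 6 genes were above 0 and 4 below, and of ATP synthase 4 were above and 14 below.

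Sterol and fatty acid synthesis had a median of 0.51, with 13 of 49 higher in LIEA and 9 in Smart-seq2. FASN, fatty acid synthase, was at 8.55 (14627 reads) and 4.41 (1769 reads), a relative difference of 4.23. ACACA, which makes its substrate malonyl-CoA, was at 4.92 and 2.48 (2.51). The enzymes of cholesterol synthesis IDI1 (4.75 and 6.96), MSMO1 (3.81 and 5.79) and SC5D (1.03 and 3.19) were on the other side, at -2.13, -1.90 and -2.07. The shares past 2-fold, 26.5% and 18.4%, were near the background.

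Glycolysis and the pentose phosphate pathway had the fewest genes past 2-fold for its size among the metabolic families, with 3 of 31 higher in LIEA and 4 in Smart-seq2 and a median of 0.24. GAPDH was at 12.81 and 12.08 (0.81), while LDHA, lactate dehydrogenase A, was at 9.70 and 11.56 (-1.77). GAPDH, often used as a reference gene, exceeded LDHA by far more in LIEA than in Smart-seq2. Among redox enzymes, PRDX1 (8.04 and 10.10) and TXN (6.95 and 9.88), peroxiredoxin and thioredoxin, had -1.98 and -2.85, whereas GSTP1, the most abundant, had 0.46 (9.67 and 9.29). CTSZ, the lysosomal protease cathepsin Z, had the highest value of the class, 5.79 (7.52 and 1.82). ALDH1A3 (6.57 and 9.94), which makes retinoic acid, and KYNU (5.84 and 8.78), of tryptophan breakdown, were low at -3.28 and -2.85 on at least 1395 reads per library.

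Filamins, spectrins, plakins and other giant linkers had a median of 1.13, with 13 of 23 higher in LIEA and 1 in Smart-seq2. MACF1, which links actin to microtubules, was highest at 4.21 and 1.08 (3.22), and FLNA, filamin A, was at 8.24 and 5.53 (2.79). Myosin heavy chains had a median of 1.01, with 8 of 14 higher in LIEA and 0 in Smart-seq2, led by MYO18A (5.90 and 2.46). Actins and small actin-binding proteins had -0.69, with 2 of 48 and 17 of 48. CFL1, cofilin, was at 9.53 and 11.57 (-1.95), and DSTN, destrin, its relative in severing filaments, at 4.63 and 7.71 (-3.0). Of the 8 ARP2/3 genes, which branch actin filaments, 0 were higher in LIEA and 4 in Smart-seq2. ACTB was within 2-fold (11.95 and 12.58).

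Keratins had the lowest family median, -1.08, with 0 of 14 higher in LIEA and 8 in Smart-seq2. This rank depended on the floor. The median was -0.76 at a log2 rpkM floor of 0, -0.53 at 3 and -0.43 with at least 10 reads in both libraries. The proteasome had -0.94, -0.73 and -1.04 there. The keratin median was also smaller in size against genes of like transcript length (-0.80) or level (-0.71). It was larger in size without centring (-1.16), and against genes of like GC content (-1.75) or of like GC content and coding length (-1.54). KRT17, the most abundant, was at 10.10 and 12.47 (-2.29). KRT6A was at 4.31 (224 reads) and 8.41 (8187 reads), and KRT6B at 2.33 (53 reads) and 6.66 (2274 reads), with relative differences of -4.01 and -4.24. KRT5, the basal partner keratin, had 0.52 (9.11 and 8.67), and KRT14, with which it pairs, had -2.05 (2.55 and 4.68). KRT6A and KRT17 are stress keratins of activated epithelium, and a Smart-seq2 sample set against LIEA samples would stand out by them. Of the desmosome, hemidesmosome and junction plaque genes, 8 of 19 were higher in LIEA and 1 in Smart-seq2. LLGL1, a polarity protein, led at 5.36 and 1.01 (4.42), JUP, plakoglobin, was at 7.94 and 7.96, and PERP, a desmosomal membrane protein, was lowest at 5.64 and 6.88 (-1.16).

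Annexins leaned to Smart-seq2, with 1 of 9 higher in LIEA and 4 in Smart-seq2 and a median of -0.92, led by ANXA3 (5.23 and 8.07). The 12 genes whose symbols begin with S100 had a median of -0.05 with 5 higher in LIEA and 2 in Smart-seq2. Among the 5 was S100PBP (1.36), which encodes a binding protein of S100P and not an S100 protein. S100A8 and S100A9, the chains of calprotectin, were on opposite sides at 1.73 (5.04 and 3.39) and -1.76 (6.79 and 8.63). Tubulins and their folding factors had a median of 0.15, and TUBA1B, the most abundant, was at 9.79 and 9.38.

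The medians of the 2 ribosomes lay on opposite sides of 0. The cytosolic ribosomal proteins had a median of 0.70, with 38 of 82 (46.3%) higher in LIEA and 7 in Smart-seq2. RPL37A was at 9.62 (4560 reads) in LIEA and 3.0 (99 reads) in Smart-seq2, and its relative difference of 6.70 was the highest of all genes compared. RPL36 was at 9.67 and 3.92, a relative difference of 5.84. RPS3A was lowest at 8.28 and 10.33 (-1.97). The large subunit had a median of 0.93 over 46 genes and the small subunit 0.82 over 30. Ribosomal protein genes have many processed pseudogenes and single values are uncertain where mapping could split reads among copies.

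For the mitochondrial ribosome the median was -0.70, with 3 of 76 higher in LIEA and 30 (39.5%) in Smart-seq2. MRPL50 (3.67 and 6.96) and MRPL1 (1.94 and 4.85) were lowest at -3.20 and -2.83, and MRPL52 (4.97 and 2.23) highest at 2.83. The proteasome, which degrades tagged proteins, had a median of -0.87, with 6 of 46 higher in LIEA and 16 in Smart-seq2. Its 20S core and 19S cap had medians of -0.90 and -0.91. PSMB4 of the core was far from the others at 7.70 and 4.67 (3.12). PSMA7, the most abundant subunit, was at 8.92 and 8.44 (0.56).

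Translation factors (-0.13) and the aminoacyl-tRNA synthetases (-0.01), which charge tRNAs, were balanced, with 13 and 14 of 61 and 5 and 5 of 38 past 2-fold. EIF3B led the former at 7.72 and 4.86. The 8 chains of the TRiC chaperonin, a folding chamber for actin and tubulin, had a median of -0.86, with 3 higher in Smart-seq2 and 0 in LIEA. The chaperones and disulfide isomerases of the endoplasmic reticulum, which fold secreted proteins, had a median of -0.28, with 7 of 60 higher in LIEA and 16 in Smart-seq2. PPIB, the most abundant of them, had -1.14 (8.70 and 9.92), while CALR and P4HB had 1.49 (9.09 and 7.68) and 1.41 (8.69 and 7.35). Of 176 RAB GTPases and coat proteins of vesicle traffic, 38 (21.6%) were higher in LIEA and 34 (19.3%) in Smart-seq2, near the background. At the ends were coat proteins: AP2A2, a large adaptor subunit, had 3.72 (4.93 and 1.29) and VPS29, a small retromer subunit, -2.54 (4.48 and 7.10).

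Most families far to the LIEA side had long coding sequences, with the cytosolic ribosome as the exception. The median coding length of all genes was 1317 bases, against 5071.5 for the basement membrane, 3063 for receptor tyrosine kinases, 7260 for the giant linkers, 3117 for chromatin proteins and 453 for cytosolic ribosomal proteins. Median GC content of the transcripts was 48.3% over all genes, 59.3% for receptor tyrosine kinases, 58.8% for keratins and 54.5% for cytokines. By quintiles of all genes, the median relative difference went from -0.65 to 0.73 with coding length and from -0.70 to 0.67 with GC content, and stayed between -0.03 and 0.01 with the length of the 3′ untranslated region. The part of either measure in a family's difference was not tested.

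**Figure D4:**
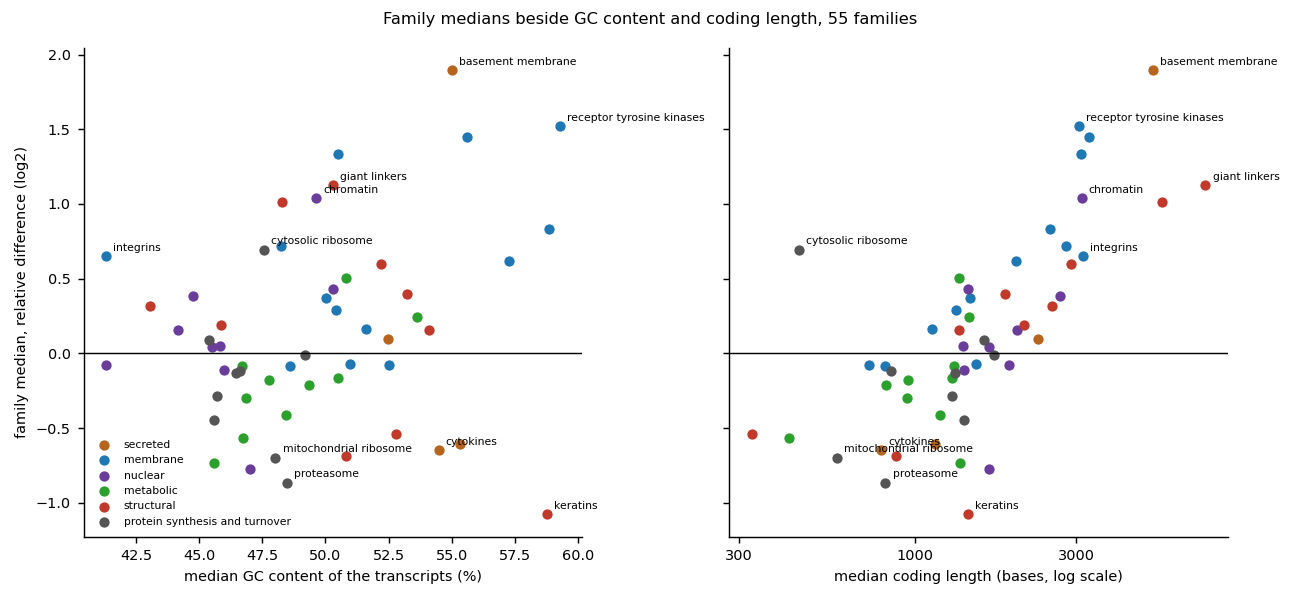
Median relative difference (log2) of each of the 55 families against the median GC content of its transcripts in percent (left) and its median coding length in bases on a log scale (right). Most families with long coding sequences lie above 0, the cytosolic ribosome lies above 0 at 453 bases, and keratins lie lowest at a GC content of 58.8%.

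Each gene was also set against genes of the same quintile of GC content and of coding length, a choice made after the values were seen. Some family medians were then closer to that of the matched genes. The median became 0.16 for receptor tyrosine kinases, 0.25 for giant linkers, 0.06 for myosins and 0.56 for the basement membrane. It fell from 1.04 to 0.45 for chromatin proteins and from 1.34 to 0.72 for ABC transporters and P-type ATPases. Of families lower in LIEA, the respiratory chain came to -0.08 and mitochondrial ribosomal proteins to -0.34. Nucleolar biogenesis stayed at -0.78, keratins went to -1.54 and cytosolic ribosomal proteins to 1.28, so these 3 lay at least as far from 0 as before.

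Mixing the methods changed what a comparison of cell lines showed. For 8450 genes with a log2 rpkM of 1 or more in all 3 libraries, LIEA of A549 was set against LIEA of HBE and against Smart-seq2 of HBE, each difference taken relative to its median over these genes. The comparisons share the A549 library. Within LIEA, 2110 genes (25.0%) were 2-fold different, and across the methods 4227 (50.0%). The floor in A549 left 83 of the 114 secreted genes and took out members such as SERPINB3 and SERPINB5, which are not listed in A549. These 83 had a median of -0.25 within LIEA, lower in A549, and 0.18 across the methods. Both medians hold for these 83 genes and not for the whole class. The metabolic class, with 482 of its 498 genes left, went from 0.18 to -0.12.

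Family by family, the basement membrane had a median of -1.09 within LIEA and 1.64 across the methods over 16 genes. Within LIEA, 1 of them was 2-fold higher in A549 and 8 were lower, and across the methods 9 were higher and 5 lower. The medians were -0.74 and 1.11 for 9 of 12 integrins, -0.81 and 0.56 for 14 of 15 receptor tyrosine kinases, and -0.59 and 0.88 for 11 of 12 genes of the lipoprotein receptor, Notch and sortilin families. The 76 mitochondrial ribosomal genes had medians of 0.07 and -1.08. Within LIEA, 8 of them were 2-fold higher in A549 and 8 lower, and across the methods 4 were higher and 40 lower. The 46 proteasome genes had -0.03 and -0.81, with 6 higher and 2 lower within LIEA and 9 higher and 20 lower across the methods. For keratins and for annexins with S100 proteins no median is given, since the floor in A549 left 9 of 14 and 16 of 20 genes and took out members high in HBE, such as KRT17 (10.10 in HBE and 0.99 in A549 by LIEA) and S100A9 (6.79 and -0.26).

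Single genes reversed too, though few did: of 8450 genes, 109 were 2-fold different in both comparisons and in opposite directions. VEGFA was at 6.79 in HBE and 3.54 in A549 by LIEA, but at 1.10 in HBE by Smart-seq2, which gave -3.05 within LIEA and 2.67 across the methods. FASN (8.55, 6.64 and 4.41 in the same order) gave -1.70 and 2.45, and NOTCH3 (6.15, 4.85 and 2.41) gave -1.10 and 2.66. KYNU reversed the other way, at 5.84, 6.96 and 8.78, with 1.32 and -1.60. MRPL50 was at 3.67 in both LIEA libraries and at 6.96 in Smart-seq2. In these 5 genes the change of method outweighed the change of cell line. They were picked as extremes of the relative difference between the methods, so this follows from the choice and describes these genes only.

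**Figure D5:**
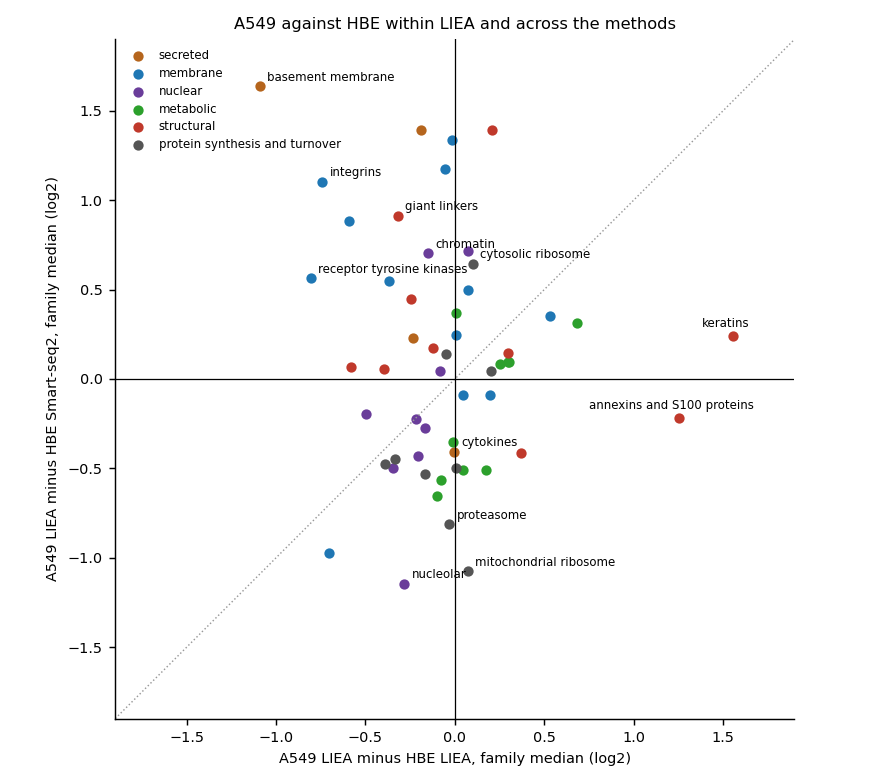
Median difference of A549 from HBE in log2 units for each family with at least 5 genes, within LIEA (horizontal) and with Smart-seq2 as the HBE library (vertical), both sharing the A549 library. On the dotted line both would be equal, and basement membrane genes (-1.09 and 1.64) lie far above it while mitochondrial ribosomal genes (0.07 and -1.08) lie below. Genes under the floor in A549 are left out. The points of keratins and of annexins with S100 proteins thereby lack members high in HBE and do not stand for those families.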

How the data were processed

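The authors mapped reads to RefSeq-RNA with FANSe2, merged splice variants and deposited log2 rpkM per gene, on hg19 per the labels. No pseudocount was added by them, genes without reads are not listed, and the files used here hold no counts. Whole reads were worked out here from steps in the values, for 18830 of 18836 genes, at totals of 4605855 (LIEA, HBE), 4154060 (LIEA, A549) and 9845150 (Smart-seq2) reads. In simulated data all 3 totals were recovered. Reads are known only up to a whole factor per gene, taken as above 1 for 761 genes, so reads and the counting errors from them are approximate. Symbols turned into dates (23 or 24 rows per library) were left out. GC content and coding length came from GENCODE 44 on GRCh37, for 9034 of the genes compared.

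Families are symbol patterns. Named genes are the most abundant, highest and lowest of a family and the 3 highest and lowest of a class, and the 10 highest and lowest genes with at least 100 reads in both. A few genes that this rule names are not reported here. Other members, the smaller groups (clade B serpins, CXCL, plexins, subunits of complexes) and the sequence-matched centring were chosen after their values were seen, and the members and lists with earlier results of these data known. Python 3.11.15, pandas 2.3.3 and numpy 2.4.6 were used.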

Additional observations from a re-analysis of the deposited data

How the results depend on the processing

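No paired analysis was possible because the methods have 1 library each among the samples used, which leaves no replicate check either. The counts moved with the floor, which also sets how many genes are compared. At a log2 rpkM of 3 or more, which leaves fewer genes, 935 genes were higher in LIEA and 862 in Smart-seq2. Without a floor, over all 14952 genes listed in both HBE libraries, the counts were 4044 and 3487. At 4-fold in place of 2-fold, over the same 9229 genes, they were 736 and 356. Class medians are small and moved easily. Without centring, the membrane class had 0.13 and the nuclear class 0.033. Within the same quintile of GC content and coding length, membrane had 0.10, nuclear 0.036, structural -0.069 and protein synthesis and turnover -0.011, and secreted -0.47. With membrane genes taken from hydrophobic segments the median was 0.092. With at least 10 reads as the floor the secreted class had 0.30, and both its values lie within the interval of its main median. The metabolic class had -0.34 with that floor and -0.035 against genes of the same level. Of 495 family medians under an alternative, 482 stayed within the exact 95% interval of the main median over its genes, 11 moved and 2 lay past 0 though that interval did not include it: DNA replication and repair to -0.0051 with at least 10 reads, and the nuclear pore to -0.0021 within the same quintiles. These intervals reflect the spread among genes, not among libraries, and are wide for small families. For the basement membrane the interval ran from 0.32 to 2.55. Its change from 1.89 to 0.56 within the same quintiles therefore counted as staying. For keratins the interval ran from -3.16 to 0.52 and so included 0. In all, 36 of the 495 had the other sign, in 18 families, and for 16 of these the main interval included 0. The 2 sequence-based alternatives were chosen after seeing the data. Of the genes compared, 69 had fewer than 10 reads in a library. The cause of these shifts was not tested.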

Other observations

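A list of 50 immediate-early and growth response genes, put together after the values were seen, leaned to Smart-seq2. These genes answer serum, stress or inflammatory signals within minutes to hours, and several encode proteins of AP-1 or its regulators. Of 40 compared, 24 were higher in Smart-seq2 and 3 in LIEA, with a median of -1.16. The 24 include CXCL1, CXCL8, CXCL3, FOSL1 and MYC, already given above, so the lean is not independent of those families. PPP1R15A, which restarts translation after stress, was at a log2 rpkM of 3.38 (114 reads) in LIEA and 7.57 (4460 reads) in Smart-seq2, a relative difference of -4.11. CYR61, a matrix-associated growth regulator, was at 5.94 and 9.22 (-3.19), and PTGS2, which starts prostaglandin synthesis, at 2.67 and 5.64 (-2.89). EGR1 (2.70 and 2.45) and JUNB (8.09 and 8.17) were nearly equal, and IER5 was on the other side at 7.41 and 4.48 (3.01). The transcripts had a median GC content of 51.1%, above that of all genes.

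Outside the families, the genes furthest apart with at least 100 reads in both libraries included FAM83H (6.26 and 1.26), ZC3H7B (5.57 and 1.10) and RABL6 (6.67 and 2.28) on the LIEA side. The long noncoding RNA NEAT1, which builds nuclear paraspeckles, was at 8.97 (17256 reads) and 4.33 (1478 reads). On the Smart-seq2 side were TM4SF1 (4.46 and 8.50), GAL, which encodes the peptide galanin (5.20 and 8.66), TNFRSF12A, the receptor of TWEAK (6.51 and 9.93), and SPHK1, sphingosine kinase 1 (3.98 and 7.40). PPIAL4G (5.29 and 9.74) is close in sequence to PPIA and is uncertain.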
